A study of Mus musculus with 18 samples.

Results

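Nitric oxide, arginine and itaconate metabolism was followed through 9 genes: Nos2, Gch1, Ass1, Slc7a1, Slc7a2, Arg1, Arg2, Odc1 and Acod1 (formerly Irg1). They were chosen by name, and all 9 were found among the 24485 genes of the expression tables. RNA-seq was performed on bone marrow-derived macrophages (BMDMs) of 12-week-old male Il10-/- mice on the C57BL/6J background, grown in medium conditioned by L929 cells. The 18 libraries formed 6 groups of 3: unstimulated cells, cells given 500 nM of the BET inhibitor (+)-JQ1, cells given 10 ng/mL IL-10, and the same 3 conditions followed by 50 ng/mL lipopolysaccharide (LPS). LPS or PBS was present for the last 4 h of a 16 h culture, after 12 h of pretreatment. Cells that received no pretreatment are called untreated in the labels, although the methods mention a vehicle before LPS. Every group, controls included, lacked Il10, and no wild-type RNA was part of the comparison. The cultures came from 3 mice, and the replicate number was taken to name the mouse.

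Macrophages can direct arginine into competing pathways. Inducible nitric oxide synthase (Nos2) converts arginine into nitric oxide and citrulline and needs the cofactor tetrahydrobiopterin, whose synthesis begins with GTP cyclohydrolase (Gch1). Arginine enters through the cationic amino acid transporters Slc7a1 and Slc7a2, and citrulline is turned back towards arginine by argininosuccinate synthase (Ass1). The cytosolic and mitochondrial arginases (Arg1 and Arg2) instead produce ornithine, which ornithine decarboxylase (Odc1) commits to polyamines. Acod1 encodes the mitochondrial enzyme that makes itaconate from cis-aconitate, a metabolite best known from LPS-activated macrophages. (+)-JQ1 displaces BET proteins from acetylated chromatin, and IL-10 is an anti-inflammatory cytokine that signals through STAT3.

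Promoter sequences from RefSeq (GRCm38.p6) were matched for 5 of the 9 genes. Of these 5, the sequence is given for the 3 genes whose LPS-induced RNA was lower with (+)-JQ1 and for Odc1, whose RNA was higher. It covers the 250 bases upstream of the annotated start, on the strand of the gene. Capitals mark matches on either strand to 7 motifs: a TATA box spelled TATAAA, a GC box spelled GGGCGG, an E-box spelled CACGTG, an AP-1 type motif spelled TGANTCA, a kappaB type spelled GGANNTTCC, an IRF type spelled AANNGAAA and a C/EBP type spelled TTGCNNAA. The motifs were chosen with the windows already in view.
Acod1, chr14:103046762-103047011, plus strand: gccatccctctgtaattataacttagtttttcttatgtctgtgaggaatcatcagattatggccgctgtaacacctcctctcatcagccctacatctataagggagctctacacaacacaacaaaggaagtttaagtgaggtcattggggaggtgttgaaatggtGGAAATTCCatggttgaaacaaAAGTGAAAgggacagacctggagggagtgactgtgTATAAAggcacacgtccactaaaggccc
Gch1, chr14:47189414-47189663, minus strand: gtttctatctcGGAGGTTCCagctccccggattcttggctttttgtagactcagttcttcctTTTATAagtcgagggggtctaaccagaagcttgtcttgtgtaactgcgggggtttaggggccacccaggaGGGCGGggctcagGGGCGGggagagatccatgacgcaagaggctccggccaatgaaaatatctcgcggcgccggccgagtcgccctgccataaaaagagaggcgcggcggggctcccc
Ass1, chr2:31470020-31470269, plus strand: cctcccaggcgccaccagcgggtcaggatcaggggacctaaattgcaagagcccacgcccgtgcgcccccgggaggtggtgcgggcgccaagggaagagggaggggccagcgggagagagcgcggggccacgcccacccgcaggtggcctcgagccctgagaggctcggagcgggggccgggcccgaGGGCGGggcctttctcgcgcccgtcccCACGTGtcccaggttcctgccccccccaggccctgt
Odc1, chr12:17544623-17544872, plus strand: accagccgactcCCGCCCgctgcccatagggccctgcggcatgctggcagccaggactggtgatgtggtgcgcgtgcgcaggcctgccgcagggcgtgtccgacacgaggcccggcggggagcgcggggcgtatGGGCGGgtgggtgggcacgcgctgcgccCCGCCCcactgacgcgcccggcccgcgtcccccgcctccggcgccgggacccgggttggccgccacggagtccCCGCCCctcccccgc
The Acod1 window held the TATA box from base 28 to base 23 before the start, an IRF-type match from base 63 to base 56, and a kappaB-type match from base 85 to base 77 that read on both strands. The Gch1 window held a kappaB-type match from base 239 to base 231, a TATA box match on the opposite strand and 2 GC boxes. The Ass1 window held 1 GC box and the E-box from base 36 to base 31 before the start, and the Odc1 window held 4 GC boxes. Slc7a1, not called between LPS + (+)-JQ1 and LPS, is not shown. Its window 1 held an AP-1 type match and a GC box. Its window 2 held a TATA box from base 28 to base 23 and IRF-type matches from base 118 to base 111 and from base 101 to base 94. Among all 32851 windows of the same length, 12.4% held a TATA box, 32.7% a GC box, 6.02% the E-box, 6.75% an AP-1 type match, 3.59% a kappaB-type match and 21.3% an IRF-type match. Apart from the kappaB-type letters of Acod1, which were read on both strands, no match overlapped another in these windows.

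Library totals ran from 6781952 to 28289498 expected counts. Il10 kept 27.1 to 177 normalised counts in every library, and since counts per gene do not resolve the deleted part, this gives no check of the genotype. The 6 macrophage markers (Adgre1, Csf1r, Itgam, Cd68, Lyz2 and Cd14) were present in every library, with summed levels of 22791 to 24563 TPM, the length-scaled share of transcripts, in unstimulated cells, 28811 to 28942 TPM with (+)-JQ1, 14033 to 15459 TPM with LPS and 19546 to 22527 TPM with LPS + (+)-JQ1. Most of these sums was Lyz2 (9722 to 24853 TPM over all libraries), and Itgam ranged from 45.8 to 461 TPM. Ly6g was at 0 in all 18 libraries, and Mpo, Elane, Cd3e and Cd3g stayed at or below 0.15 TPM. The neutrophil-associated genes S100a8 and S100a9 together reached 21 to 74 TPM in unstimulated cells and 32.4 to 45.9 TPM with LPS, against 6.76 to 13.4 TPM with (+)-JQ1 and 10.7 to 23.9 TPM with LPS + (+)-JQ1. The 3 T cell markers, nearly all of it Cd4 (1.72 to 8.53 TPM over all libraries), summed to 6.75 to 7.91 TPM in unstimulated cells, 3.06 to 3.92 with (+)-JQ1, 2.83 to 3.77 with LPS and 1.72 to 2.51 with LPS + (+)-JQ1. The 3 dendritic cell markers summed to 69.3 to 93.5 TPM in unstimulated cells, 38.3 to 42.8 with (+)-JQ1, 60.4 to 73 with LPS and 30.5 to 35.1 with LPS + (+)-JQ1, nearly all of it Itgax, while Flt3 stayed at or below 0.19 TPM and Zbtb46 at or below 1.2 TPM. The part of these shifts in the LPS and (+)-JQ1 comparisons was not tested. In bulk RNA, fewer cells of a type and less RNA per cell cannot be told apart.

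The library of unstimulated replicate 1 stood apart for 3 of the 9 genes. It held 374 expected counts of Acod1 where replicates 2 and 3 held 9 and 25, it held 9 counts of Nos2 where both others held 0, and its Ass1 level was 27.76 TPM against 5.57 and 7.83 TPM. DESeq2 marked the Acod1 count as an outlier and gave Acod1 no adjusted p in any comparison, so 8 of the 9 genes were tested there. Results for Acod1 are therefore given from the same model without this library, an alternative added after the data were seen, and results for Ass1 and Nos2 that rest on it are given with and without it.

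**Figure D1:**
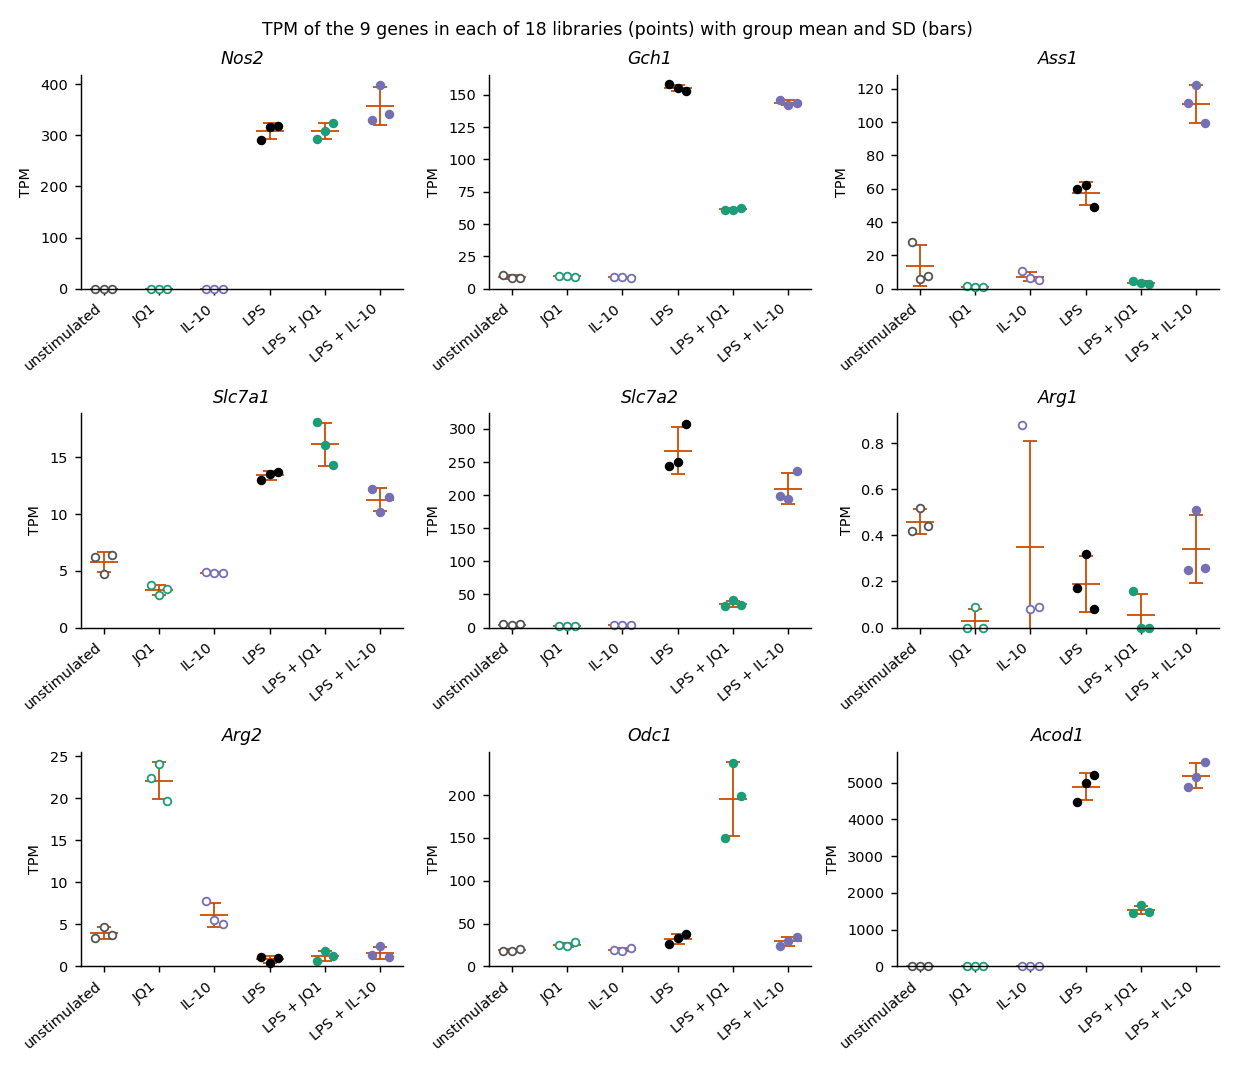
TPM (linear axes, one panel per gene) in each of the 18 libraries, with the mean and SD of each group of 3 as horizontal bars; error bars reaching below 0 are cut at 0. Nos2, Gch1, Slc7a2 and Acod1 were high only in the 3 groups given LPS, whereas Arg2 was highest with (+)-JQ1 alone and Odc1 with LPS + (+)-JQ1.

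A gene was called when its adjusted p, from the Wald test of DESeq2 with Benjamini-Hochberg adjustment over all genes tested, was under 0.05. LPS changed 7 of the 8 tested genes, 6 upward and 1 downward, where 64.5% of all tested genes were called. With (+)-JQ1 during LPS, 5 of 8 were called against LPS alone, 1 higher and 4 lower (background 57.3%). With IL-10 during LPS, 2 of 7 were called, both lower (17.2%; Arg1 received no adjusted p). Between the 2 pretreatments during LPS, 6 of 8 differed (55.3%). Without LPS, (+)-JQ1 changed 6 of 8 (45.7%) and IL-10 changed 1 of 8 (2.81%). The LPS response was called for 7 of 8 genes in cells given (+)-JQ1 (58.6%) and for 7 of 8 in cells given IL-10 (67.0%), and LPS + (+)-JQ1 differed from unstimulated cells for 7 of 8 (62.4%). The effect of (+)-JQ1 differed with and without LPS for 5 of 8 (41.5%), and that of IL-10 for 1 of 7 (7.44%). In each comparison the share of these genes called was above that of all tested genes, but with 7 or 8 genes the difference amounts to few genes, and it was not tested. Both single calls with IL-10 were of Nos2, which was also 1 of the 4 lower with (+)-JQ1 during LPS. These Nos2 calls were lost under several alternatives, as given below. Several comparisons share control libraries and are not independent of each other.

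**Figure D2:**
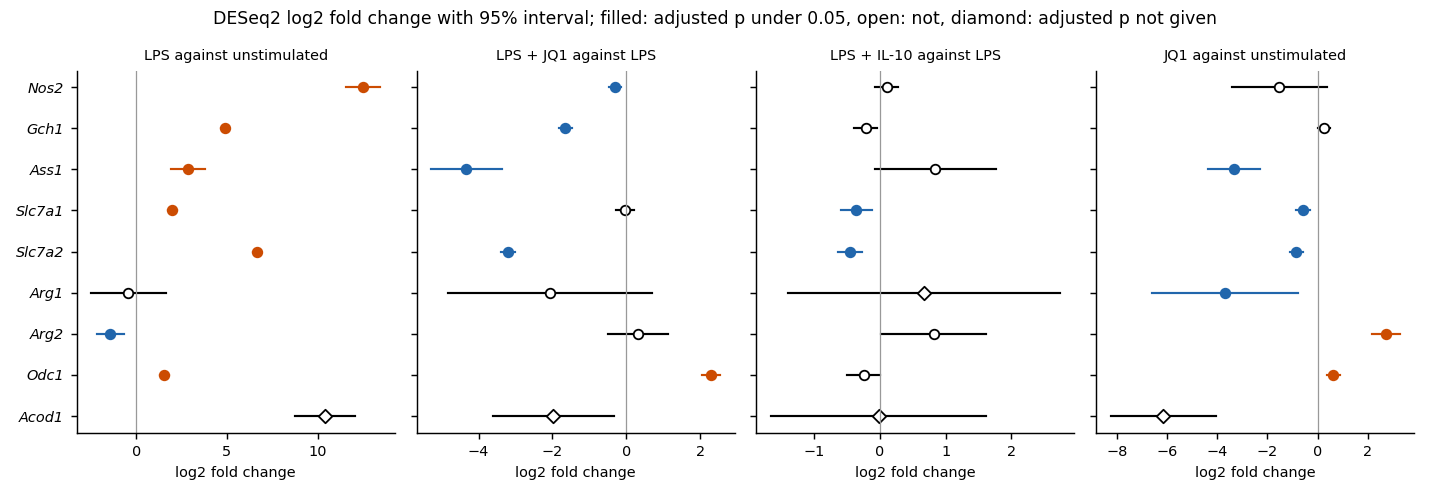
Log2 fold-change of the 9 genes (rows) with its 95% interval in 4 comparisons, from DESeq2; filled circles passed the adjusted threshold, open circles did not, and diamonds mark values without an adjusted p. LPS raised Slc7a2 by 6.64 on the log2 scale, and the values for (+)-JQ1 during LPS were -4.34 for Ass1, -3.20 for Slc7a2 and 2.30 for Odc1.

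Size factors mattered for small differences. The median log2 fold-change of expressed genes between LPS and unstimulated cells was -0.07 with the median-of-ratios factors of DESeq2 and -1.0 with total counts, and the share of called genes that were higher fell from 49% to 20.1%. Between LPS + (+)-JQ1 and LPS the median was -0.10 and 0.28, and the higher share was 42.5% and 64.9%. Values are from the median-of-ratios factors unless stated. The 7 genes called in the LPS comparison kept their direction and call under TMM and total-count factors, and so did Ass1, Slc7a2, Gch1 and Odc1 in the comparison of LPS + (+)-JQ1 with LPS. In the latter, the Nos2 call held with TMM (-0.21, adjusted p = 0.0325) but not with total-count factors (0.07, 0.537). Slc7a1, not called with median-of-ratios factors, was called higher with total-count factors (0.34, 0.00936).

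**Figure D3:**
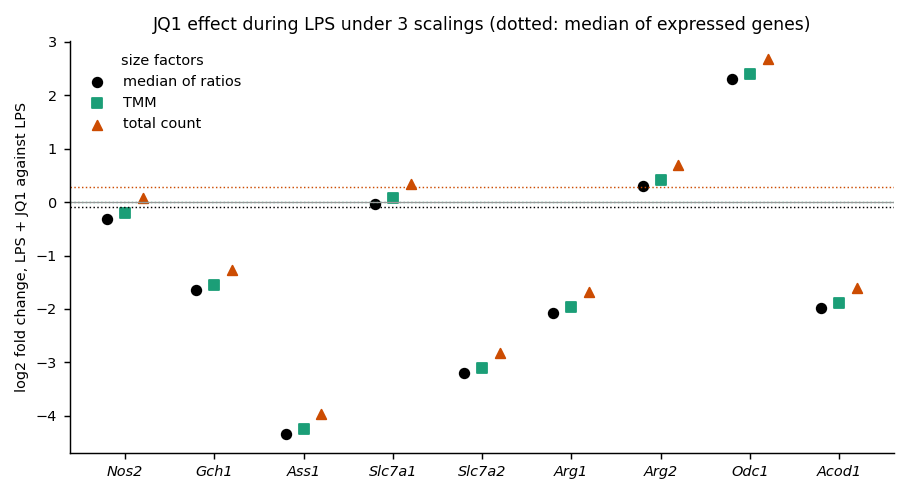
Log2 fold-change of the 9 genes in LPS + (+)-JQ1 against LPS under 3 kinds of size factor, with the median of all expressed genes as a dotted line for each. Ass1, Slc7a2, Gch1 and Acod1 lay below all 3 medians and Odc1 above them, whereas the Nos2 value ran from -0.31 to 0.07 and the Slc7a1 value from -0.03 to 0.34.

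Nos2, the enzyme that makes nitric oxide, was nearly silent without LPS and strongly expressed with it. Unstimulated libraries held 0.24, 0 and 0 TPM, (+)-JQ1 libraries 0.06, 0 and 0.03 TPM, and IL-10 libraries 0 TPM each. With LPS the level was 291.38, 317.23 and 319.25 TPM, and with LPS + (+)-JQ1 it was 292.68, 309.31 and 324.79 TPM. With LPS + IL-10 it was 330.15, 399.22 and 342.63 TPM, so all 3 libraries lay above those with LPS alone on this scale. In normalised counts these groups overlapped (14798 to 18223 with LPS + IL-10, 14663 to 15956 with LPS). The LPS libraries held 38333 counts of Nos2 against 9 in unstimulated cells, a ratio of counts per library total of 3029 (95% counting interval 1596 to 6625). All 9 counts were in unstimulated replicate 1, and without that library the LPS group was at least 2305-fold higher, taken against 3 counts per library. The same ratio was 10395 in cells given (+)-JQ1 (3557 to 50410, from 3 counts without LPS), and LPS + IL-10 was at least 4663-fold higher than IL-10 alone, taken against the same floor. The group means on the TPM scale were 309 ± 15.5 (SD, n = 3) with LPS and 309 ± 16.1 with LPS + (+)-JQ1, and these libraries overlapped. DESeq2 placed LPS + (+)-JQ1 lower (log2 fold-change -0.31, SE 0.0874, adjusted p = 0.00104), but the adjusted p was 0.718 with the replicate block, 0.122 with lane as a covariate and 0.201 with edgeR, and the difference was 0.07 with total-count factors. The 95% interval of the DESeq2 difference was -0.48 to -0.14.

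IL-10 during LPS differed from LPS alone by 0.10 (95% interval -0.07 to 0.27, adjusted p = 0.543). The lower Nos2 level with IL-10 alone (-4.52, adjusted p = 0.0196) rested on the 9 counts of unstimulated replicate 1: without that library both groups were at 0, and with the replicate block its adjusted p was 0.0662. LPS + (+)-JQ1 was lower than LPS + IL-10 (log2 fold-change -0.41, SE 0.0874, adjusted p = 1.08e-05), without overlap in TPM. This call was also lost with the replicate block (0.63), with edgeR (0.0629) and with total-count factors (0.221).

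Gch1, which starts tetrahydrobiopterin synthesis, rose with LPS and fell with (+)-JQ1 during LPS. Its level was 10.82, 7.88 and 8.51 TPM in unstimulated cells and 158.15, 154.97 and 153.30 TPM with LPS (log2 fold-change 4.87, SE 0.11). With LPS + (+)-JQ1 it was 61.15, 60.53 and 62.43 TPM, between the unstimulated and LPS groups with no overlap with either, and 39.5% of the LPS mean. It was lower than with LPS (log2 fold-change -1.65, SE 0.0933, adjusted p = 3.66e-68). Without LPS, (+)-JQ1 libraries (9.92, 9.46 and 9.08 TPM) overlapped the unstimulated ones (0.26, adjusted p = 0.0721, 0.00892 without unstimulated replicate 1 and 0.0346 with the replicate block). The (+)-JQ1 effect was thus a decrease with LPS (-1.65) and 0.26 without (difference -1.91, SE 0.154, adjusted p = 3.52e-33). LPS + IL-10 gave 145.86, 141.75 and 144.03 TPM, all below the LPS libraries on this scale. In normalised counts these groups overlapped (4026 to 4680 with LPS + IL-10, 4560 to 5439 with LPS). The difference of -0.22 (SE 0.0918, adjusted p = 0.0783) passed with the replicate block (0.00919), with lane (0.00535) and without unstimulated replicate 1 (0.0478).

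The arginine transporters responded differently. Slc7a1, the transporter found in most cell types, measured 6.18, 4.72 and 6.36 TPM in unstimulated cells and 12.99, 13.49 and 13.75 TPM with LPS, a rise of 1.99 (SE 0.128, adjusted p = 3.41e-53). Slc7a2, the transporter associated with activated macrophages, went from 4.82, 3.88 and 4.92 TPM to 243.82, 249.77 and 308.19 TPM (6.64, SE 0.108). Slc7a2 therefore made up 44.2% ± 0.814 (SD, n = 3) of the summed TPM of both transporters in unstimulated cells and 95.2% ± 0.475 with LPS. With LPS + (+)-JQ1, Slc7a2 was 32.48, 41.47 and 33.85 TPM, 13.4% of the LPS mean, and well apart from LPS alone (-3.20, SE 0.0957, adjusted p = 4.28e-242). Slc7a1 in the same libraries was 18.11, 16.07 and 14.30 TPM, each above the LPS libraries on this scale. The DESeq2 difference of Slc7a1 was nevertheless -0.03 (95% interval -0.27 to 0.21, adjusted p = 0.839), and it was 0.34 with total-count factors (adjusted p = 0.00936). The share of Slc7a2 was 68.9% ± 4.13 with LPS + (+)-JQ1.

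Without LPS, (+)-JQ1 lowered both transporters, Slc7a1 to 3.73, 2.83 and 3.43 TPM (-0.59, SE 0.138, adjusted p = 7.22e-05) and Slc7a2 to 2.69, 2.03 and 1.87 TPM (-0.85, SE 0.127, adjusted p = 1.78e-10). All 3 (+)-JQ1 libraries lay below the unstimulated ones for both genes. The (+)-JQ1 effect on Slc7a2 was -0.85 without LPS and -3.20 with LPS, a stronger decrease (difference -2.35, SE 0.159, adjusted p = 6.6e-47). For Slc7a1 it was -0.59 without LPS and -0.03, not called, with LPS (difference 0.56, SE 0.184, adjusted p = 0.00737). This Slc7a1 difference was no longer called without replicate 1 (0.49, adjusted p = 0.0675) or without replicate 3 (0.56, 0.0557). With LPS + IL-10 both transporters were slightly lower than with LPS. Slc7a2 was 198.00, 194.74 and 236.88 TPM (-0.46, SE 0.0945, adjusted p = 2.54e-05), and the call was lost on log2(TPM + 1) with limma (-0.34, 0.0702). Slc7a1 was 12.17, 10.14 and 11.52 TPM (-0.36, SE 0.123, adjusted p = 0.0253), and its call was lost without replicate 2 (-0.27, 0.445), without replicate 3 (-0.36, 0.153) and with total-count factors (-0.26, 0.131).

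**Figure D4:**
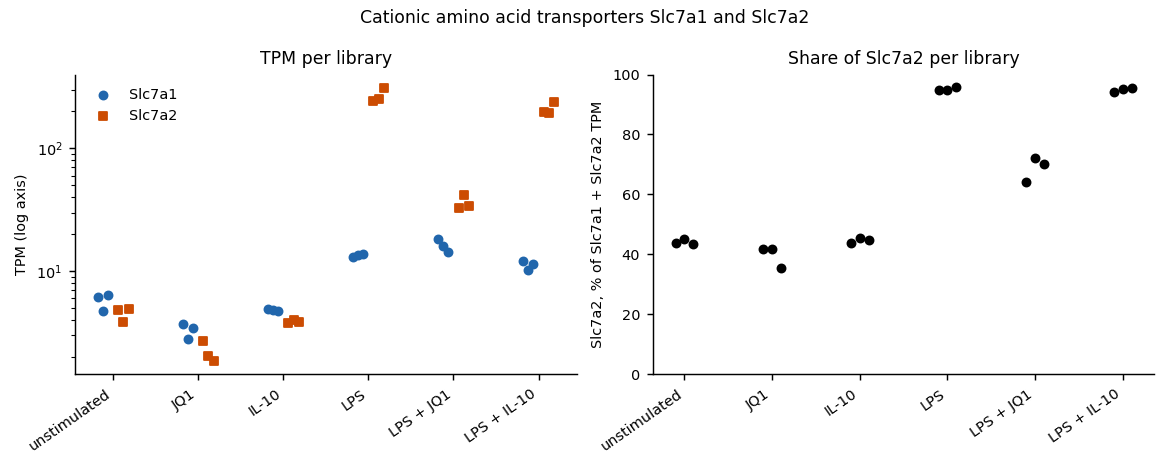
Slc7a1 and Slc7a2 in each library, as TPM on a log axis (left) and as the percentage of their summed TPM that is Slc7a2 (right), in the 6 groups. The share of Slc7a2 was 35.3% to 45.5% in the libraries without LPS, 94.2% to 95.7% with LPS or LPS + IL-10, and 64.2% to 72.1% with LPS + (+)-JQ1.

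Ass1, which returns citrulline to the arginine pool, had the widest response to the pretreatments during LPS among the 8 tested genes. Its level was 27.76, 5.57 and 7.83 TPM in unstimulated cells and 60.00, 62.43 and 49.33 TPM with LPS (2.85, SE 0.477, adjusted p = 5.96e-09), and the LPS response was 3.85 (SE 0.263) without unstimulated replicate 1. With LPS + (+)-JQ1 it was 4.36, 3.46 and 2.69 TPM, 6.12% of the LPS mean (-4.34 against LPS, SE 0.487, adjusted p = 4.02e-18). This was below every unstimulated library in TPM, but normalised counts overlapped (39.4 to 66.3 against 60.9 to 287 in unstimulated cells). With (+)-JQ1 alone it was 1.46, 1.04 and 1.08 TPM, lower than in unstimulated cells by a log2 fold-change of -3.33 (SE 0.521, adjusted p = 1.51e-09) that was -2.33 without unstimulated replicate 1 (adjusted p = 6.11e-11). The call of Ass1 in LPS + (+)-JQ1 against unstimulated cells (-1.48, adjusted p = 0.00483) was lost without that library (-0.48, 0.138). LPS still raised Ass1 in cells given (+)-JQ1, by 1.84 (SE 0.53, adjusted p = 0.00117).

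IL-10 went the other way. With LPS + IL-10, Ass1 was 111.44, 122.36 and 99.53 TPM, each above all LPS libraries, and the mean of 111 ± 11.4 TPM was 194% of the LPS mean. In the fit of all libraries the difference was 0.84 with an SE of 0.472 (adjusted p = 0.249). Without unstimulated replicate 1 it was again 0.84 with an SE of 0.208 (adjusted p = 0.000656), and in a fit of these 2 groups alone 0.86 (adjusted p = 8.61e-06). The adjusted p was 0.0668 with the replicate block, 0.185 with lane and 0.0647 with edgeR. IL-10 libraries without LPS (10.31, 6.37 and 5.06 TPM) overlapped the unstimulated ones. Between the pretreatments during LPS, Ass1 was lower with (+)-JQ1 than with IL-10 (-5.18, SE 0.487, adjusted p = 2.17e-25). The difference of the (+)-JQ1 effect with and without LPS was not called (-1.01, 0.262) but was -2.0 without unstimulated replicate 1 (adjusted p = 8.99e-06). For IL-10 the corresponding difference was 1.81 (adjusted p = 0.0837), 0.79 (0.191) without unstimulated replicate 1 and 1.71 (0.0106) with the replicate block.

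Arg1 was near the limit of detection in all groups. This gene, associated with alternatively activated macrophages, never exceeded 0.88 TPM and had 0 to 20 counts per library. Unstimulated libraries held 5, 3 and 6 counts, LPS libraries 2, 5 and 1, and (+)-JQ1 libraries 0, 1 and 0. The summed count with (+)-JQ1 was 1 against 14 in unstimulated cells, a ratio of counts per library total of 0.0652 (95% counting interval 0.00154 to 0.428). DESeq2 called this difference (adjusted p = 0.0313), but the adjusted p was 0.0531 without replicate 2, 0.178 without replicate 3 and 0.0515 without unstimulated replicate 1. For LPS against unstimulated cells the ratio was 0.406 (0.148 to 1.04), and the DESeq2 difference was -0.44 (adjusted p = 0.743). The LPS libraries lay below the unstimulated ones in TPM (0.08 to 0.32 against 0.42 to 0.52) but overlapped them in normalised counts (1.23 to 5.17 against 3.86 to 5.07). No LPS response of Arg1 was called at this depth.

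Arg2, the mitochondrial arginase, was highest with (+)-JQ1 alone. Unstimulated libraries held 3.34, 4.72 and 3.77 TPM and (+)-JQ1 libraries 22.35, 24.10 and 19.71 TPM, a rise of 2.72 (SE 0.286, adjusted p = 4.12e-20) without overlap. IL-10 libraries held 7.78, 5.56 and 5.06 TPM, above the unstimulated ones on this scale but not called (0.63, adjusted p = 0.424). In normalised counts these groups overlapped (42.4 to 66.4 with IL-10, 29.3 to 44 in unstimulated cells). With LPS the level was 1.13, 0.40 and 1.04 TPM, lower than in unstimulated cells (-1.44, SE 0.381, adjusted p = 0.000308), a call lost without replicate 2 (-0.92, 0.0542). In cells given (+)-JQ1, LPS reduced Arg2 to 0.68, 1.86 and 1.28 TPM, a log2 fold-change of -3.85 (SE 0.334, adjusted p = 9.34e-30). These libraries overlapped those with LPS alone (0.31, 95% interval -0.51 to 1.13, adjusted p = 0.555). The (+)-JQ1 effect was thus a rise of 2.72 without LPS and 0.31, not called, with LPS (difference -2.41, SE 0.507, adjusted p = 1.19e-05). LPS + IL-10 gave 1.33, 2.46 and 1.09 TPM (0.82 against LPS, adjusted p = 0.172). With LPS, 6 to 23 counts of Arg2 were read per library. Arg2 overlaps Vti1b on the opposite strand in the mm9 annotation.

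Odc1, the enzyme that commits ornithine to polyamines, was raised by LPS, by (+)-JQ1 and most by both. Its level was 18.10, 18.44 and 20.31 TPM in unstimulated cells, 24.48, 23.77 and 28.01 TPM with (+)-JQ1, and 26.32, 32.70 and 37.64 TPM with LPS. LPS + (+)-JQ1 libraries held 150.29, 237.10 and 198.70 TPM, several times any other group. Against LPS this was a rise of 2.30 (SE 0.124, adjusted p = 6.54e-75), with a mean on the TPM scale of 195 ± 43.5 (SD, n = 3), 606% of the LPS mean. LPS alone raised Odc1 by 1.54 (SE 0.132, adjusted p = 9.22e-31), or 0.61 with total-count factors (adjusted p = 2.06e-05). (+)-JQ1 alone raised it by 0.63 (SE 0.133, adjusted p = 1.16e-05). The (+)-JQ1 effect was larger with LPS than without by 1.67 (SE 0.182, adjusted p = 1.48e-18). With LPS + IL-10 the libraries (24.00, 29.89 and 33.79 TPM) overlapped those with LPS (-0.25, adjusted p = 0.193, and 0.0327 with lane as a covariate), and they were lower in 3 of 3 mice.

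Acod1, the itaconate-producing enzyme, reached the highest level of the 9 genes. With LPS it measured 4480.84, 5002.50 and 5200.21 TPM, with LPS + (+)-JQ1 1451.35, 1661.80 and 1473.21 TPM, and with LPS + IL-10 4874.65, 5162.22 and 5551.26 TPM. The LPS + (+)-JQ1 libraries lay below all libraries of the other LPS groups at 31.2% of the LPS mean, and the LPS + IL-10 libraries overlapped those with LPS. Without LPS the level was 16.71, 0.84 and 0.98 TPM in unstimulated cells, 3.40, 0.84 and 1.47 TPM with IL-10, and 0.17, 0.05 and 0 TPM with (+)-JQ1. In the fit without unstimulated replicate 1, LPS raised Acod1 by 13.15 (SE 0.568, adjusted p = 4.74e-117). Against LPS it was lower with (+)-JQ1 (-1.98, SE 0.449, adjusted p = 3e-05). With all 18 libraries edgeR gave 10.24 (adjusted p = 9.54e-11) and -1.88 (0.00184) for these comparisons. The lower level with (+)-JQ1 was not called in some fits that kept unstimulated replicate 1. Among them were limma on log2(TPM + 0.1) (-1.68, adjusted p = 0.0602) and the DESeq2 fit without replicate 2 (-1.98, 0.0809).

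The difference of Acod1 between LPS + IL-10 and LPS was -0.02 (95% interval -0.90 to 0.86) in the fit without unstimulated replicate 1. Without LPS, (+)-JQ1 lowered Acod1 in that fit (-3.40, SE 0.862, adjusted p = 0.000366), from summed counts of 5 with (+)-JQ1. LPS induced Acod1 in cells given (+)-JQ1 as well, with 99099 counts against 5, a ratio of counts per library total of 18700 (95% counting interval 8013 to 57592). The (+)-JQ1 effect with LPS was not shown to differ from that without (1.42, SE 0.971, adjusted p = 0.255), but it was called with all 18 libraries by edgeR (4.26, 0.0452), with the replicate block (3.78, 0.0151) and with lane as a covariate (4.09, 0.0139). Those values include unstimulated replicate 1.

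Other genes of the same pathways were described from 3 lists, given as counts and medians. The share of all tested genes called was 64.5% for LPS, 57.3% for (+)-JQ1 during LPS and 17.2% for IL-10 during LPS. For the 17 nitric oxide and tetrahydrobiopterin genes, LPS raised 2 and lowered 6 of the 15 tested, with a median of -0.49 beside -0.07 for all tested genes. With total-count factors 1 was higher and 8 lower, and the median was -1.42 beside -1.02. Slc7a7, which exports arginine together with its partner Slc3a2, rose by 2.42 with LPS (SE 0.125, adjusted p = 1.64e-82) and fell with (+)-JQ1 during LPS (-4.15, SE 0.154, adjusted p = 2.18e-157), from 51 ± 6.57 to 3.48 ± 0.47 TPM. Slc3a2 itself rose by 1.07 with LPS, or 0.14 with total-count factors, which did not pass (adjusted p = 0.0699). LPS lowered Nostrin (-2.18) and Nosip (-1.39), which encode proteins that bind endothelial nitric oxide synthase, and Spr (-1.37), the last enzyme of tetrahydrobiopterin synthesis. With (+)-JQ1 during LPS, 6 of 14 were higher and 2 lower, with a median of 0.18 beside -0.11. With total-count factors 7 of 15 were higher and 2 lower, and the median was 0.59 beside 0.25. The higher ones included Spr (1.45, SE 0.148), Pts, the enzyme that acts after Gch1 (1.19, SE 0.168), and Nosip (1.11, SE 0.12). Without LPS, (+)-JQ1 also raised Pts by 1.69 and Spr by 0.50, while Nosip was not called (0.19, adjusted p = 0.123). Spr measured 32 ± 1.42 TPM in unstimulated cells, 7.17 ± 1.33 with LPS and 24.4 ± 2.56 with LPS + (+)-JQ1, so it moved opposite to Gch1 in both comparisons. IL-10 during LPS changed 0 of the 10 tested by DESeq2 and 0 of 10 by edgeR, with 1 gene at an unadjusted p under 0.05 in DESeq2. It raised 1 of 10 with total-count factors and 1 of 10 by limma on log2(TPM + 1).

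For the 21 polyamine and arginine-ornithine genes, LPS raised 5 and lowered 7 of 18, where 64.5% of all tested genes were called. The median was -0.06 beside -0.07 for all tested genes. With total-count factors 1 was higher and 14 lower, and the median was -0.99 beside -1.02. Eif5a, the protein that carries the spermidine-derived hypusine, was among the 5 that rose (1.08, SE 0.0572, and 0.15 with total-count factors, adjusted p = 0.0176). Sat1, which acetylates spermidine and spermine for export or breakdown, was another (1.04, SE 0.115, and 0.12 with total-count factors, adjusted p = 0.371). Paox, a polyamine oxidase, fell (-3.04, SE 0.224, adjusted p = 3.19e-41). With (+)-JQ1 during LPS 9 were higher and 3 lower (57.3% of all tested genes called), with a median of 0.34 beside -0.11. With total-count factors 14 were higher and 2 lower, and the median was 0.71 beside 0.25. Sat1 was higher by 1.32 (SE 0.114) at 1539 ± 88.3 TPM against 501 ± 105 with LPS. Oaz2, an antizyme that inhibits ornithine decarboxylase, was higher by 1.31 (SE 0.099), in the same direction as Odc1. Without LPS, (+)-JQ1 also raised Sat1 by 1.33 and Oaz2 by 1.05. Unlike for Odc1, the difference of these effects with and without LPS was not called (Sat1 -0.02, adjusted p = 0.95, and Oaz2 0.25, 0.11). Srm, the spermidine synthase, was also among the 9, and Eif5a was among the 3 that were lower. Gatm, which uses arginine for creatine synthesis, fell (-1.34, SE 0.139). IL-10 during LPS lowered 4 of 17 (Sms, Sat1, Gatm and Eif5a), where 17.2% of all tested genes were called. By contrast, limma on log2(TPM + 1) called 1 of 18 higher and 0 lower.

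For the 25 itaconate, citrate and succinate genes, as for all tested genes, the direction depended on the size factors. LPS raised 9 and lowered 10 with median-of-ratios factors (64.5% of all tested genes called), against 0 and 23 with total-count factors. The median was -0.11 beside -0.07 for all tested genes, and -1.04 beside -1.02 with total-count factors. Idh1, the cytosolic isocitrate dehydrogenase, fell (-1.67, SE 0.107, adjusted p = 2.6e-53), from 163 ± 23.9 to 30 ± 4.19 TPM, and Auh fell as well (-1.07). Both also fell with total-count factors. With (+)-JQ1 during LPS 10 were higher and 9 lower (57.3% of all tested genes called), against 16 and 1 with total-count factors. The median was 0.15 beside -0.11 for all tested genes, and 0.52 beside 0.25 with total-count factors. Suclg2, a subunit of succinyl-CoA synthetase, fell (-1.15, SE 0.153). IL-10 during LPS lowered 1 of 25, Mdh1, where 17.2% of all tested genes were called, and 2 were higher with total-count factors.

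Genes whose pattern across the 18 libraries was most like that of each of the 9 were ranked by Pearson's r on variance-stabilised counts among 8378 expressed genes. The libraries share mice, lanes and the contrast between LPS and no LPS, so r is descriptive. Nos2 was closest to Nfkbia (r = 0.998), the inhibitor of NF-kappaB, with mean levels of 123 TPM in unstimulated cells, 1918 with LPS and 2247 with LPS + (+)-JQ1. Gch1 was closest to Usb1 and Rnf31 (both 0.999). Acod1 was closest to Ifit1 (0.996), an interferon-induced gene at 7.12 TPM in unstimulated cells, 1751 with LPS and 771 with LPS + (+)-JQ1. Arg2 was closest to Hmox1 (0.924), the heme oxygenase, at 520 TPM unstimulated, 1005 with (+)-JQ1 and 152 with LPS. Slc7a1 was closest to Atp2b4 (0.993) and Odc1 to Hacd3 (0.982). Each of these ranked among the 10 closest genes on log2(TPM + 1) as well. Ass1 was closest to Nadk (0.983) and Slc7a2 to Plekha2 (0.998), which ranked 1568 and 292 on log2(TPM + 1). The counts of Arg1 were too low for its closest genes to carry a result.

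In the mm9 annotation used for alignment, Nos2 lies at chr11:78734289-78773756, Gch1 at chr14:47773570-47809088, Ass1 at chr2:31325727-31376192, Slc7a1 at chr5:149138986-149211480 and Slc7a2 at chr8:41947750-42007662. Arg1 lies at chr10:24635014-24647276, Arg2 at chr12:80231764-80257288, Odc1 at chr12:17551679-17558308 and Acod1 at chr14:103446194-103455790. Slc7a2 overlaps Gm17475 on the opposite strand and Odc1 holds SNORA42 on its own strand. The libraries were stranded, but by the methods of the study RSEM was run with default parameters, which do not use the strand, so reads of such pairs could not be told apart. Expected counts cover whole genes and do not separate exons, introns or isoforms.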

How the data were processed

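The authors prepared ribosomal RNA-depleted, stranded, paired-end libraries, aligned them with STAR to mm9 and estimated gene levels with RSEM (version 1.2.31, per the labels). The deposited expected counts and TPM of 18 libraries were read for all 24485 genes, of which 7578 were at 0 in every library, and the group and replicate of each library came from its title. Expected counts were rounded and fitted for all libraries together in DESeq2 (version 1.42.0, R 4.3.3) with 1 term per group and median-of-ratios size factors. The Wald test of DESeq2 with Benjamini-Hochberg adjustment at 0.05 follows the methods of the study, whereas the joint fit of all 18 libraries was chosen here. Interactions were contrasts of the same fit. The alternatives were edgeR (4.0.16, at least 10 counts in 3 libraries), limma (3.58.1) on log2(TPM + 1) and log2(TPM + 0.1), TMM and total-count factors, the count filter, the compared groups alone, a replicate block, a lane covariate and leaving out each replicate.

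Deposited totals of 6781952 to 28289498 counts per library set the precision of low genes. Counting intervals (exact, conditional on the summed counts) and the floor of 3 counts cover counting error only. The replicate numbers were taken to pair the libraries because the labels describe matched cultures of 3 mice. Deviations from the group means correlated between libraries of the same number by 0.09 to 0.129 for LPS against unstimulated, 0.167 to 0.453 for LPS + IL-10 against LPS, and -0.104 to 0.081 for LPS + (+)-JQ1 against LPS. The lane was 7 for replicate 1 and 8 for replicate 3, while the LPS libraries of replicate 2 were on lane 8 and its other libraries on lane 7. Among the 3 LPS groups, each mouse was therefore compared within a lane. The 9 genes were named throughout. From each pathway list, up to 3 genes per direction were named with an adjusted p under 0.05, a log2 fold-change of at least 1 and 100 or more normalised counts on average, and Srm, Mdh1, Sms and Eif5a, where outside that rule, after their values were seen. Closest genes were the highest-ranked by r. The genes and lists were chosen with earlier results of these data known. The DESeq2 procedure was tested on simulated counts in which a small part of the genes changed, equally up and down. That test does not cover the choice of size factors under wide changes, or an outlying library. No 2 libraries held identical values.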

Additional observations from a re-analysis of the deposited data

Results flagged for a closer look

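The following effects differed between cells with and without LPS by an interaction contrast of DESeq2, with adjusted p over all genes. For (+)-JQ1 the difference, taken as the effect with LPS minus that without, was -2.41 for Arg2 (SE 0.507, adjusted p = 1.19e-05), where the (+)-JQ1 effect was 2.72 without LPS and 0.31, not called, with LPS. It was -2.35 for Slc7a2 (SE 0.159, adjusted p = 6.6e-47), with effects of -0.85 without LPS and -3.20 with LPS. It was -1.91 for Gch1 (SE 0.154, adjusted p = 3.52e-33), with effects of 0.26, not called, without LPS and -1.65 with LPS. It was 1.67 for Odc1 (SE 0.182, adjusted p = 1.48e-18) and 0.56 for Slc7a1 (SE 0.184, adjusted p = 0.00737). The last was not called without replicate 1 (0.49, adjusted p = 0.0675) or without replicate 3 (0.56, 0.0557).

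For IL-10 the only such gene was Nos2, with a difference of 4.62 (SE 1.28, adjusted p = 0.00648). It rested on 9 counts in unstimulated replicate 1, was 0.85 (adjusted p = 0.93) without that library, and had an adjusted p of 0.0629 with the replicate block and 0.0773 with edgeR.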

How the results depend on the processing

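Of 1243 values of single genes recomputed under the alternatives, 1146 were counted as the same. These kept their side of the threshold or, where an adjusted p was missing in 1 or both settings, moved by less than 1 SE. They include Acod1 values that had no adjusted p in the main fit and were called in an alternative. The sign changed for 31 of the 1146, all called in neither setting. Another 21 newly passed the threshold with the same sign, and 45 no longer passed. The other 29 (5 with another sign) moved by 1 SE or more where the adjusted p was missing in 1 or both settings. The sign of 2 values called in either setting changed, Nos2 (0.07) and Slc7a1 (0.34) in LPS + (+)-JQ1 against LPS with total-count factors. The number of the 9 genes called stayed within 1.5 times its value in 8 of the 11 comparisons. For LPS + IL-10 against LPS it was 2, but 1 with total-count factors, 0 with limma on either TPM scale, 4 with lane as a covariate and 4 without unstimulated replicate 1, and it ran from 1 to 3 when each replicate was left out. For IL-10 against unstimulated it was 1, but 0 with edgeR, with limma on either scale, in the fit of these groups alone, with the replicate block and without unstimulated replicate 1, and 0 to 1 when each replicate was left out. For the interaction of LPS with IL-10 it was 1, but 2 with total-count factors, 2 with lane, 0 with limma on either scale and 0 without unstimulated replicate 1. The cause was not tested. With the replicate block, calls changed for Nos2, Gch1 and Ass1 as given above, and Acod1, which then received an adjusted p, was called in the interaction of LPS with (+)-JQ1 (3.78, 0.0151). The depth limits Arg1 in all groups, Arg2 with LPS, and Nos2 and Acod1 without LPS.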
